A study of Mus musculus with 4 samples.

Results

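High-mitochondrial barcodes were the cell barcodes of a brain myeloid single-cell RNA data set with at least 1000 unique molecular identifiers (UMIs, counted transcripts), at least 500 detected genes and more than 10% of UMIs from mitochondrially encoded transcripts (gene symbols starting mt-). They numbered 836 of the 14776 barcodes that passed the same depth and gene minimums. The remaining barcodes were 12908 with at most 5% mitochondrial UMIs (low-mt) and 1032 with more than 5 and up to 10%. The members were therefore chosen on measured values, their depth and their mitochondrial share, and those values are given as a description with no test. The gene comparisons between the classes rest on the other transcripts, after removal of the 13 mitochondrial genes, and on low-mt barcodes of the same non-mitochondrial depth from the same library. The proportions among the mitochondrial transcripts and the genotypes within the members are compared separately.

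Mitochondrial mRNAs are made inside the organelle from its own genome and stay there, whereas most nuclear-encoded mRNAs are exported to the cytoplasm and a few long noncoding RNAs, such as Malat1 and Neat1, remain in the nucleus. A barcode with a large mitochondrial share is a common quality-control exclusion in droplet sequencing. Cytosolic mRNA can leak from a ruptured cell, while organelles, mRNAs bound to the endoplasmic reticulum and nuclear RNA are held more firmly. Microglia, the resident macrophages of the brain, hold a homeostatic program marked by P2ry12 and Tmem119, and around amyloid plaques they take up the neurodegenerative or disease-associated program (MGnD) marked by Apoe, Cst7 and Clec7a.

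The 4 libraries came from CD11b+/CD45+ cells sorted by flow cytometry after a Percoll gradient from the left brain hemisphere of female mice aged 4 months, sequenced with 10x Genomics 3′ v3.1 chemistry. All mice were APP/PS1 transgenic, a model of amyloid deposition. Of these libraries, 2 came from APP/PS1:miR-155 cKO mice, in which microglial miR-155 was deleted (cKO), and 2 from APP/PS1 mice that kept it (Control). The labels name neither the Cre driver nor the deleted part of the locus, they call the libraries biological replicates, and deletion of miR-155 was not measured here.

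The libraries held 33130800 to 47574406 UMIs in all. The run code in the file name of cKO replicate 2 differed from the code shared by the remaining 3 libraries, and key results are given without it as well. Control replicate 1 held no Xist, the X-inactivation RNA, in its matched low-mt barcodes, although all mice were labelled female, and 52.2 CPM (UMIs per 1000000 non-mitochondrial UMIs) in its matched high-mt barcodes. Of 14762 distinct barcodes, 14 occurred in more than 1 library, and no member was among them. A doublet removal at a fixed rate marked 1 member in Control replicate 1, 1 in Control replicate 2 and none in the cKO libraries.

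The 836 members comprised 188 of 4016 and 170 of 3022 barcodes in cKO replicates 1 and 2, and 193 of 4544 and 285 of 3194 barcodes in Control replicates 1 and 2. Their shares were 4.68% (95% exact binomial interval 4.05 to 5.38) in cKO replicate 1, 5.63% (4.83 to 6.51) in cKO replicate 2, 4.25% (3.68 to 4.87) in Control replicate 1 and 8.92% (7.96 to 9.97) in Control replicate 2. These intervals cover counting error only. The mean share over n = 2 libraries was 5.15% ± 0.668 SD for cKO, against 6.59% ± 3.31 SD for Control. The difference was -1.43 percentage points with a two-sided exact permutation p = 1.0, where 0.333 was the smallest p the design allows. Control replicate 2 stood above the other libraries, and without it the difference was 0.906 points, with cKO then the higher group.

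Their median mitochondrial share was 13.9%, 152 members exceeded 20% (33, 26, 31 and 62 in cKO replicates 1 and 2 and Control replicates 1 and 2), 37 exceeded 30%, and the highest reached 56.8%. The marker transcript mt-Co1, a cytochrome oxidase subunit, took 1.74%, 1.66%, 1.63% and 1.56% of all UMIs of the members in that library order. In the matched low-mt barcodes it took 0.243%, 0.315%, 0.266% and 0.298%. The marker mt-Nd4, a complex I subunit, took 1.06%, 0.927%, 0.916% and 1.01% in the members, against 0.149%, 0.180%, 0.155% and 0.167% in the matched low-mt barcodes. Both follow from the rule. Just inside the threshold, the 128 barcodes of 10 to 11% held 7.10% of their non-mitochondrial UMIs in Malat1, 11.7% in ribosomal protein genes and 0.305% in Apoe. Just outside it, the 152 barcodes of 9 to 10% held 6.97% in Malat1, 13.6% in ribosomal protein genes and 0.407% in Apoe.

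Most members were shallow. Their median was 1324.5 UMIs, against 6619.5 in low-mt barcodes, and after removal of the mitochondrial genes 748 held under 2000 UMIs and 88 held 2000 or more (16, 15, 33 and 24 per library). The matched comparison used 448 members, 98, 70, 138 and 142 by library, each paired with a low-mt barcode of its own library and depth bin. The other 388 had no free partner in their bin. Low-mt barcodes of at least 1000 UMIs held 969 or more outside the mitochondrial genes, whereas 196 members held fewer than 950, so a minimum on total UMIs keeps members of a nuclear-encoded depth that no low-mt barcode has. A gene minimum of 500 left out a further 8, 3, 5 and 12 barcodes with more than 10% mitochondrial UMIs in the 4 libraries.

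Microglia markers were detected in nearly all members, and their summed level was below that of low-mt barcodes. At least 2 of 12 microglia markers were found in 833 of 836 members, and in 446 of 448 matched members against 448 of 448 matched low-mt barcodes. This count does not separate cells from background, since draws of 1000 UMIs from free RNA alone would hold at least 3 homeostatic genes in 98.7% to 99.4%. The summed level of the 12 markers was 10429 to 19652 CPM by library in matched members, against 25638 to 31384 CPM in matched low-mt barcodes. Of the markers of other types, border-associated macrophage markers summed to 0 to 66.2 CPM against 0 to 7.68 CPM, monocyte markers to 3.83 to 161 CPM against 7.68 to 19.7 CPM, and neuronal markers to 0 to 33.1 CPM against 0 to 6.27 CPM. Erythroid markers summed to 0 to 6.19 CPM in members and were at 0 in all 4 low-mt sums. Astrocyte markers stood at 131 to 668 CPM against 146 to 269 CPM, oligodendrocyte markers at 55.7 to 225 CPM against 50.1 to 95.8 CPM, and vascular markers at 46.3 to 61.9 CPM against 18.4 to 56.4 CPM. The highest astrocyte and monocyte sums of members were both in cKO replicate 2. There Clu gave 86 of 108 astrocyte-marker UMIs and Ace 16 of 26 monocyte-marker UMIs, with up to 52 and 11 of them in a single barcode. Neutrophil markers (231 to 324 CPM against 210 to 332 CPM), lymphoid markers (92.8 to 169 CPM against 251 to 403 CPM) and dendritic cell markers (631 to 1038 CPM against 1159 to 1633 CPM) were not above their low-mt range. The first 2 sums were nearly all from single genes in matched members. Csf3r gave 48 of 49, 39 of 40, 61 of 62 and 61 of 61 neutrophil-marker UMIs by library. Ighm gave 20 of 22, 14 of 15, 39 of 44 and 43 of 44 lymphoid-marker UMIs. The dendritic cell list shares Siglech with the microglia list, and the part of these types in the results below was not tested. Choroid plexus and ependymal markers reached the highest sum of the other types. They summed to 77168 CPM in the matched members of cKO replicate 2, where 5 barcodes carried at least 2 of the 6 markers and Ttr alone had 11802 UMIs, and to 0, 1208 and 19.2 CPM in cKO replicate 1 and Control replicates 1 and 2. In matched low-mt barcodes they stood at 0, 0, 339 and 0 CPM. The deepest member, with 26616 UMIs and 11.2% mitochondrial, was one of those 5 and held 4350 Ttr UMIs. It supplied 14.6% of the matched sum of its library, and counts for the lists that lead each comparison are also given without barcodes carrying other types' markers.

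Summed across the 448 matched pairs, high-mt barcodes carried more MGnD transcripts and fewer homeostatic and surface-receptor transcripts than low-mt barcodes. Deep barcodes weigh more in these sums, and under 2000 non-mitochondrial UMIs the MGnD list did not move one way, as described below. With edgeR's quasi-likelihood test on 1 sum per library and class, the library as a block and Benjamini-Hochberg adjustment, 38 of 3571 tested genes rose and 34 fell (2.02% called, 1.06% higher and 0.952% lower). Of these 72 genes, 70 moved the same way in all 4 libraries. Of 19 tested MGnD genes 13 rose and none fell, with a median log2 change of 1.52 against 0.01 over all tested genes. The MGnD median was 0.90 when the matched barcodes were thinned to 1000 UMIs each, 0.90 with members over 15% and -0.015 against all low-mt barcodes without matching. Of 16 homeostatic genes 4 fell and none rose (median -0.58), and of 20 microglial surface receptors and their adaptors 6 fell and none rose (median -0.56). The 4 homeostatic genes that fell (P2ry12, Cx3cr1, Selplg and Gpr34) belong to both lists.

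Cst7, which encodes the protease inhibitor cystatin F, had 536, 384, 1398 and 636 CPM in the high-mt barcodes of cKO replicates 1 and 2 and Control replicates 1 and 2, against 131, 94.0, 206 and 173 CPM in low-mt barcodes (log2 change 2.27, SE 0.23, adjusted p = 1.82e-04). Every library was higher on the high-mt side, and the lowest high-mt value exceeded the highest low-mt value. The chemokine gene Ccl6 had 357, 279, 832 and 586 CPM against 72.1, 100.2, 243 and 169 CPM in the same library order (log2 change 1.87, SE 0.21, adjusted p = 3.53e-04). Lpl, the lipoprotein lipase, had 324, 124, 358 and 287 CPM against 72.1, 50.1, 36.9 and 69.1 CPM (log2 change 2.33, SE 0.29, adjusted p = 6.52e-04), with no overlap between the classes. Clec7a, the receptor dectin-1, had 298, 266, 444 and 195 CPM against 52.4, 68.9, 122 and 84.5 CPM (log2 change 1.88, SE 0.25, adjusted p = 8.20e-04). Other MGnD genes that rose were Igf1, a growth factor (2.94), Ank, a pyrophosphate and ATP exporter (2.44), and Fabp5, a fatty acid-binding protein (2.32). Apoe, the lipid carrier and the most abundant of them, had 6479, 2451, 5250.3 and 9069 CPM against 1677, 1284, 1854 and 4319 CPM (log2 change 1.42, SE 0.21, adjusted p = 0.00184). It was higher in all 4 libraries, but the classes overlapped because low-mt barcodes of Control replicate 2 exceeded the high-mt barcodes of cKO replicate 2. When all low-mt barcodes were used without matching, the signs of Cst7, Ccl6 and Clec7a turned (-0.30, -0.33 and -0.22), so their rise is stated for matched depth.

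Top2a, a topoisomerase of dividing cells, showed the largest increase of the named genes, 72.8, 86.7, 85.8 and 99.6 CPM against 19.7, 0, 3.69 and 7.68 CPM (log2 change 3.57, SE 0.50, adjusted p = 0.00119). It was the 1 gene of 5 tested cell-cycle genes that rose. The filter on low counts admitted Top2a on its high-mt levels alone, which favours a rise among genes tested at this level. With DESeq2 none of the 5 passed, and without barcodes carrying other types' markers none of 3 tested did. Insig1, which retains the sterol sensor complex in the endoplasmic reticulum (1.95, adjusted p = 0.0303), rose as well. Among nuclear transcripts, Neat1, the scaffold of paraspeckles (ENSMUSG00000092274, chromosome 19, 5824708 to 5845478, GRCm38), had 1482, 1721, 567 and 1023 CPM against 589.6, 727, 405 and 595 CPM (log2 change 1.02, SE 0.20, adjusted p = 0.0137). It was higher in all 4 libraries and was the 1 of 7 tested nuclear long noncoding RNAs past the threshold. Ccnl1, a cyclin whose transcript retains introns in the nucleus, rose by 0.87 on the log2 scale (adjusted p = 0.0216), the 1 of 20 such transcripts to do so. Malat1, the most abundant of these RNAs (ENSMUSG00000092341, chromosome 19, 5795690 to 5802672), stood at 88125, 63273, 57593 and 81246 CPM against 70166, 66251, 60641 and 56185 CPM, higher in 2 libraries and lower in the other 2 (log2 change 0.24, SE 0.22, adjusted p = 0.669).

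P2ry12, the ADP receptor of homeostatic microglia (ENSMUSG00000036353, chromosome 3, 59216272 to 59262871), had 807, 576, 809 and 674 CPM in high-mt barcodes against 1625, 1792, 2061 and 1370.5 CPM in low-mt barcodes (log2 change -1.19, SE 0.19, adjusted p = 0.00236). The classes did not overlap. Cx3cr1, the fractalkine receptor, had 999, 557, 1700.4 and 2046 CPM against 1919.6, 2061, 4136 and 3132 CPM (log2 change -1.11, SE 0.21, adjusted p = 0.0108), lower in all 4 libraries. Cst3, which encodes the secreted inhibitor cystatin C and was among the most abundant mRNAs, had 11468, 10423, 15751 and 10955 CPM against 27129.7, 26196, 34823 and 29555 CPM (log2 change -1.23, SE 0.21, adjusted p = 0.00470), again with no overlap. The largest decrease of the named genes was that of Crybb1, a crystallin that microglia express, with 59.6, 55.7, 33.6 and 38.3 CPM against 275, 194, 199 and 269 CPM (log2 change -2.31, SE 0.26, adjusted p = 3.53e-04). Further decreases were found for Selplg, the P-selectin ligand, the tetraspanin Cd53 (-1.03), Alox5ap, which serves leukotriene synthesis (-1.64), the complement subunit C1qc (-0.90), the heat-shock gene Hspa1b (-1.75) and Lst1, a small leukocyte membrane protein (-2.05). Tnfaip8l2, an inhibitor of immune receptor signalling, fell by 1.41 on the log2 scale against low-mt barcodes but stood at 0.04 against the barcodes of 5 to 10%. Tmem119 (-0.90, adjusted p = 0.0555) and C1qa (-0.79, adjusted p = 0.0514) were lower in all 4 libraries and did not pass the threshold.

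Ribosomal protein genes (80 tested, median 0.08) and immediate-early genes (17 tested, median 0.07) had no member past the threshold in this comparison. The ribosomal median was -0.56 when the matched barcodes were thinned to 1000 UMIs each and -0.66 with members over 15%, so its direction turned. Without barcodes carrying other types' markers 2 of 17 immediate-early genes rose. Nuclear-encoded genes of the respiratory chain had 1 of 71 that rose, Cox6c of complex IV, and a median of 0.30 that became -0.29 when barcodes with other types' markers were left out and -0.22 without cKO replicate 2. Cox6c turned to -0.065 when barcodes were thinned without matching. The number of genes called was 22 without cKO replicate 1, 52 without cKO replicate 2, 48 without Control replicate 1 and 70 without Control replicate 2. Against barcodes of 5 to 10% mitochondrial UMIs in place of low-mt barcodes it was 16. Restricting both classes to barcodes with microglia markers alone gave 71 genes, of which MGnD genes were 8 of 20 tested. Of 16 homeostatic genes 4 then fell, and of 20 receptors and adaptors 5 fell and 1 rose. Without cKO replicate 2 MGnD genes were 12 of 20, homeostatic genes 1 of 16 and receptors 2 of 20.

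**Figure D1:**
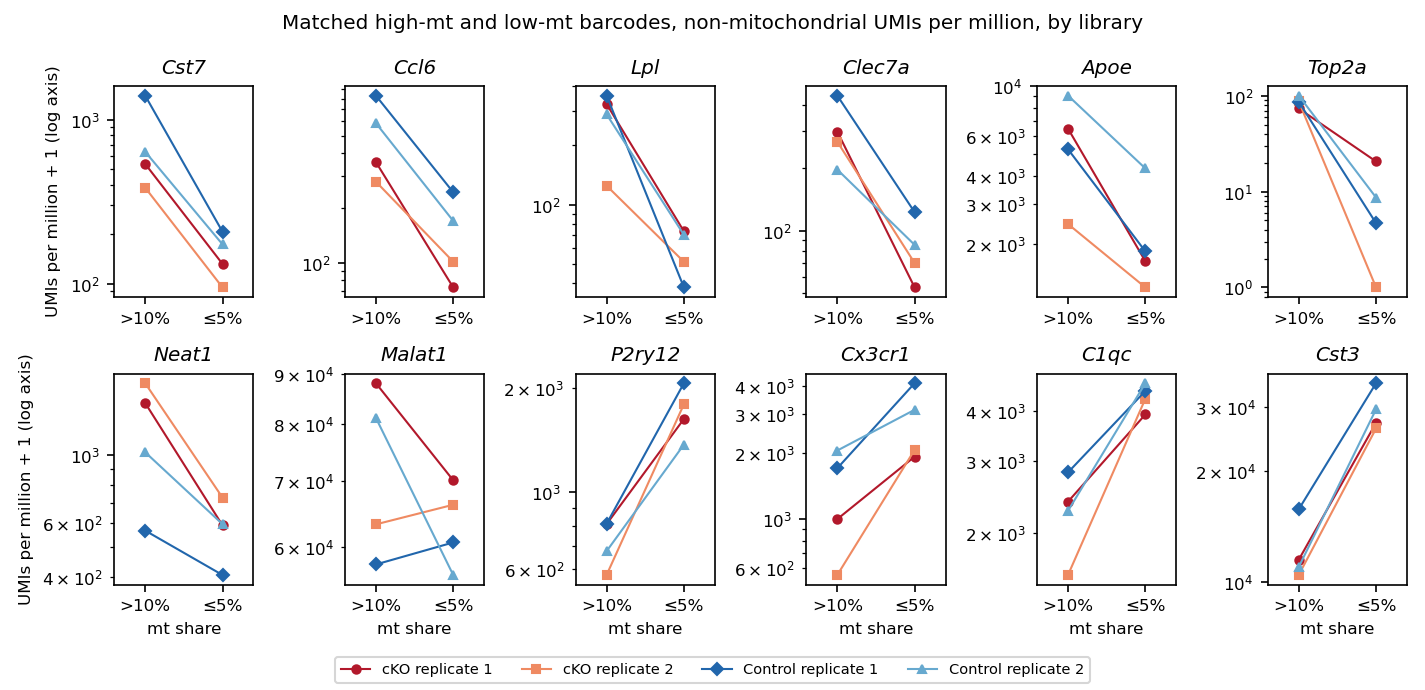
Levels of 12 genes in matched high-mt (over 10%) and low-mt (at most 5%) barcodes of each library, in CPM plus 1 on a log axis, 1 line per library. The 6 MGnD or cell-cycle genes of the upper row lie higher in high-mt barcodes of all 4 libraries, P2ry12, Cx3cr1, C1qc and Cst3 lie lower in all 4, and Malat1 is split 2 against 2.

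The matched set mixes barcodes of different depth, so the comparison was repeated below and from 2000 non-mitochondrial UMIs, a split added after the data had been seen. In sums over barcodes under 2000, cytoplasmic housekeeping mRNAs were depleted and a small set of nuclear transcripts was enriched. Shares in single barcodes varied within both classes, as described below. Of 2081 tested genes 112 rose and 290 fell (19.3% called, 5.38% higher and 13.9% lower). All 78 tested ribosomal protein genes were lower and 75 of them fell, with a median log2 change of -1.76 against 0.03 over all tested genes. Of 22 nuclear-encoded respiratory chain genes 17 fell (median -1.63), of 14 actin genes and actin partners 8 fell (median -0.63), and of 14 translation factors 6 fell and 1 rose. DESeq2 called 22 genes higher and 157 lower in place of 112 and 290, and without Control replicate 2 these were 48 and 210. Without cKO replicate 1 they were 63 and 247, and without Control replicate 1 they were 64 and 248. With DESeq2, 72 of the 78 ribosomal genes, 11 of 22 respiratory chain genes, 3 of 14 actin genes and 4 of 14 translation factors fell. Without barcodes carrying other types' markers 76 of 78 ribosomal, 12 of 17 respiratory chain and 8 of 14 actin genes fell.

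Rps29, a protein of the small ribosomal subunit, had 483, 357, 387 and 579.8 CPM in high-mt barcodes of the 4 libraries against 2071, 1415, 1969.5 and 5351 CPM in low-mt barcodes (log2 change -2.59, SE 0.19, adjusted p = 2.84e-18). The classes did not overlap. Rplp1, of the ribosomal stalk, had 691, 288, 829 and 744 CPM against 2833, 1551, 2564 and 4981 CPM (log2 change -2.31, SE 0.18, adjusted p = 2.97e-17). Tmsb4x, which encodes the actin-binding thymosin beta 4, had 2036, 1757, 2292 and 2023 CPM against 7356, 4872, 6418 and 6662 CPM (log2 change -1.74, SE 0.15, adjusted p = 1.48e-15). Cst3 had 7947, 3858, 8200.5 and 7178 CPM against 22580.1, 17787, 26214 and 26316 CPM (log2 change -1.91, SE 0.13, adjusted p = 2.60e-19), the smallest p of this comparison. The glycolytic enzyme Gapdh (-1.40), the actin-binding profilin Pfn1 (-1.66), the translation-associated Tpt1 (-1.66) and the ATP synthase subunits Atp5e (-2.59) and Atp5g2 (-2.45) fell too. So did the signalling adaptors Fcer1g (-2.01) and Tyrobp (-1.56), whose short mRNAs encode membrane proteins. These decreases were present in each of the 4 libraries.

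Malat1 had 110570.2, 118293, 107187 and 114537 CPM in high-mt barcodes under 2000 UMIs against 81376, 92024, 86930.0 and 71939.8 CPM in low-mt barcodes of that depth (log2 change 0.34, SE 0.11, adjusted p = 0.0136). The classes did not overlap, although the increase was small. Neat1 had 1610.2, 2348, 914 and 1443 CPM against 613, 953, 494 and 696 CPM (log2 change 1.05, SE 0.17, adjusted p = 1.04e-06). Xist rose in the 3 libraries that carried it (0.52, adjusted p = 0.0159), so that 3 of 7 nuclear long noncoding RNAs rose and none fell. With DESeq2 1 of the 7 rose. Ccnl1 (1.07, adjusted p = 1.26e-06) was again the 1 transcript of 20 with retained introns that rose, while the median of these 20 was 0.16. Of 16 immediate-early genes 6 rose and none fell (3 rose with DESeq2), among them the early-response gene Ier3 (1.57), the stress-induced transcription factor Atf3 (1.05) and the antiproliferative gene Btg2 (0.69).

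Secreted and lysosomal mRNAs, which are translated at the endoplasmic reticulum, were divided. Of 23 tested, 3 rose and 7 fell, and with DESeq2 1 rose and 6 fell. The risers were Apoe (1.22, adjusted p = 6.08e-07), the protease gene Ctsd (0.68, adjusted p = 1.44e-04) and Psap, the precursor of the saposins (0.54, adjusted p = 0.0147). Apoe rose in 3 libraries and stood at 467 CPM in high-mt barcodes of cKO replicate 2, against 721 CPM in its low-mt barcodes. The complement subunits C1qa (-0.97), C1qb (-0.84) and C1qc (-1.16) fell along with Cst3. Of 20 surface receptors and adaptors 10 fell and 1 rose, the integrin subunit Itgb5, with 2074, 1236, 2091 and 2042 CPM against 985, 612, 857 and 828 CPM (log2 change 1.07, SE 0.17, adjusted p = 2.71e-07). P2ry12 fell by 0.91 and Cx3cr1 by 0.73 on the log2 scale, and 6 of 16 homeostatic genes fell in all. Of 15 MGnD genes 4 rose (Apoe, Ctsd, Axl and Csf1) and 2 fell (Tyrobp and Cd52), so the list did not move one way at this depth. Without cKO replicate 2, 8 of 17 rose and 2 fell.

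Among matched deep members, with 2000 or more non-mitochondrial UMIs, the pattern of housekeeping genes was the opposite. Of 1394 tested genes 194 rose and 143 fell (24.2% called, 13.9% higher and 10.3% lower). Of 79 ribosomal protein genes 69 rose and none fell (median 0.82 against -0.04 over all tested genes), and of 54 nuclear-encoded respiratory chain genes 31 rose and none fell (median 1.08). Of 16 MGnD genes 14 rose and none fell (median 1.71). Of 16 homeostatic genes 13 fell (median -1.03), of 20 surface receptors and adaptors 12 fell and 1 rose (median -0.74), and of 15 immediate-early genes 11 fell (median -1.27). These counts rest on 16, 15, 33 and 23 matched members per library, since not all 24 deep members of Control replicate 2 had a partner. Without barcodes carrying markers of another type, which left 14, 9, 25 and 22, 159 genes were called in place of 337. The ribosomal genes that rose were then 37 of 79 (median 0.83), the respiratory chain genes 5 of 39 (median 0.47) and the MGnD genes 10 of 14 (median 1.41). Of the lists that fell, 9 of 16 homeostatic genes, 8 of 20 receptors and adaptors and 6 of 14 immediate-early genes then did so. Without Control replicate 1, the library with the most deep members, 75 genes were called, and 27 of 79 ribosomal, 2 of 50 respiratory chain and 9 of 16 MGnD genes rose, while 7 of 16 homeostatic genes, 5 of 20 receptors and adaptors and 5 of 16 immediate-early genes fell. Without cKO replicate 2, 196 were called, and 8 of 55 respiratory chain genes rose. With DESeq2, 15 of 54 respiratory chain genes rose.

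Cst7 in deep members had 1229.8, 623, 2468 and 1373 CPM against 42.9, 45.9, 155 and 656 CPM in low-mt barcodes of that depth (log2 change 3.12, SE 0.38, adjusted p = 2.55e-07). Low-mt barcodes of Control replicate 2 lay just above high-mt barcodes of cKO replicate 2, and the other libraries were far apart. Ccl6 had 1054, 464, 1511 and 1305 CPM against 129, 115, 247 and 225 CPM (log2 change 2.70, SE 0.29, adjusted p = 4.63e-08), with no overlap. Apoe had 13045, 3963, 6785 and 13952 CPM against 1159, 1502, 1931 and 4643 CPM (log2 change 2.19, SE 0.25, adjusted p = 7.64e-08). Ank (3.22), Fabp5 (2.83), Lpl (2.76) and the surface glycoprotein gene Cd52 (1.63) rose as well. Gapdh rose (1.33, adjusted p = 9.53e-04), with the glycolytic enzymes Pkm (1.43) and Pgam1 (1.32), the 3 of 9 tested glycolysis genes that passed. None of 9 did without Control replicate 1, 2 of 9 did with DESeq2 or without cKO replicate 2, and 1 of 4 did without barcodes carrying other types' markers. Tmem119 had 351, 272, 317 and 419 CPM against 1353, 1422, 1219 and 852 CPM (log2 change -1.64, SE 0.27, adjusted p = 4.37e-05), and P2ry12 had 527, 679, 856 and 867 CPM against 1739, 2878, 2763 and 2194 CPM (log2 change -1.53, SE 0.22, adjusted p = 7.63e-06). Both were separate in all libraries. Txnip, which binds thioredoxin (-2.28), Sall1, a transcription factor of microglial identity (-1.56), and the immediate-early genes Egr1 (-1.47), Fos (-1.43) and Jun (-1.32) fell. Malat1 in these barcodes stood at 36082, 18128, 11923 and 27301 CPM against 27138, 40901, 32085 and 31901 CPM, lower in 3 of 4 libraries without passing the threshold (log2 change -0.44, SE 0.25, adjusted p = 0.219).

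The difference between the depths was tested as an interaction of depth and mitochondrial class, which passed the threshold for 461 of 2324 genes (19.8% called, 15.4% with a larger log2 change in deep barcodes and 4.43% with a smaller one). All 79 tested ribosomal protein genes and 53 of 58 nuclear-encoded respiratory chain genes had a larger change in deep barcodes (median differences 2.63 and 2.79 on the log2 scale). Of 18 MGnD genes 6 did, among them Ccl6 (3.51), Fabp5 (3.86) and Cst7 (2.48). Of 16 immediate-early genes 13 had a smaller one (median -1.51). Apoe, Neat1 and Ctsd rose at both depths, and P2ry12, Cx3cr1, Selplg, Cst3, C1qc, Cd53, Crybb1 and Alox5ap fell at both. The interaction was not repeated without barcodes carrying other types' markers. Without those barcodes 5 of 39 respiratory chain genes rose in the deep comparison, as given above.

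**Figure D2:**
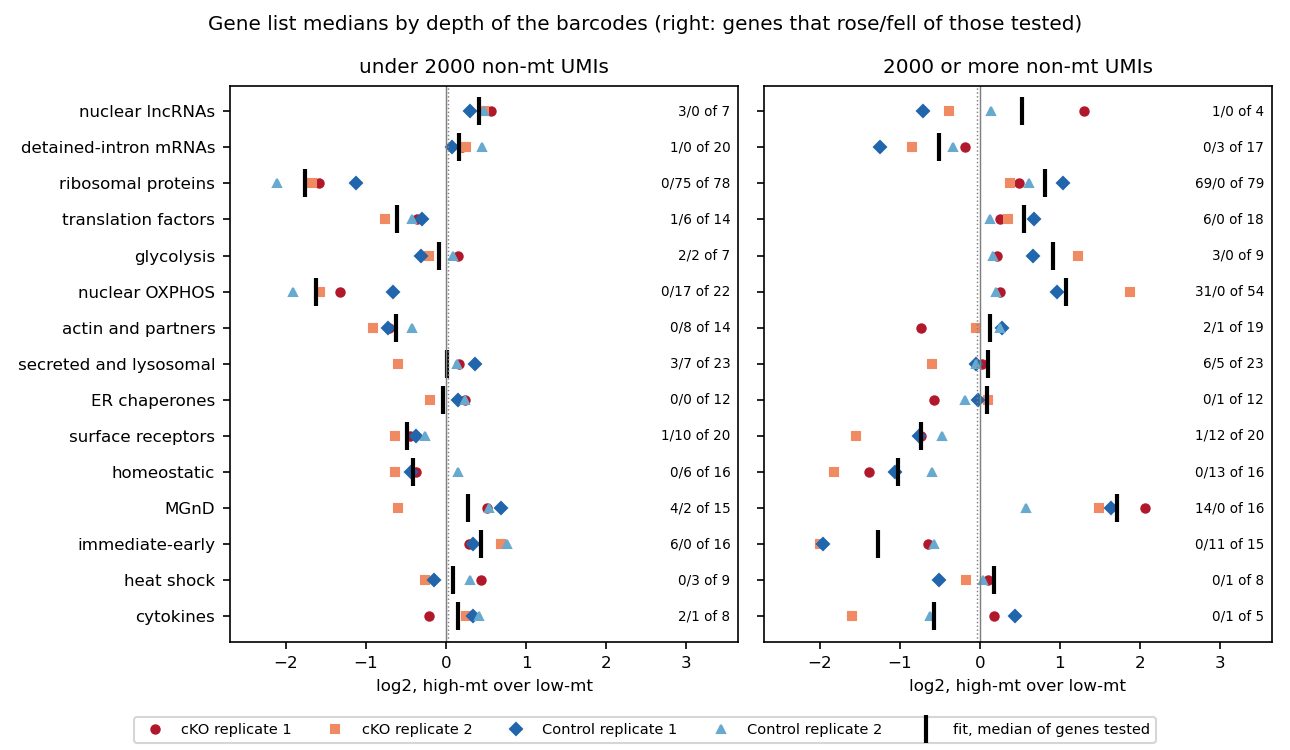
Median log2 change, high-mt over low-mt, of the tested genes of 15 lists in barcodes under 2000 (left) and of 2000 or more (right) non-mitochondrial UMIs. Points are the medians of single libraries from CPM, black bars the medians of the fitted changes, and dotted lines the median of all tested genes. Ribosomal protein and nuclear OXPHOS genes (nuclear-encoded respiratory chain genes) lie left of 0 at the lower depth and right of 0 at the higher one.

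**Figure D3:**
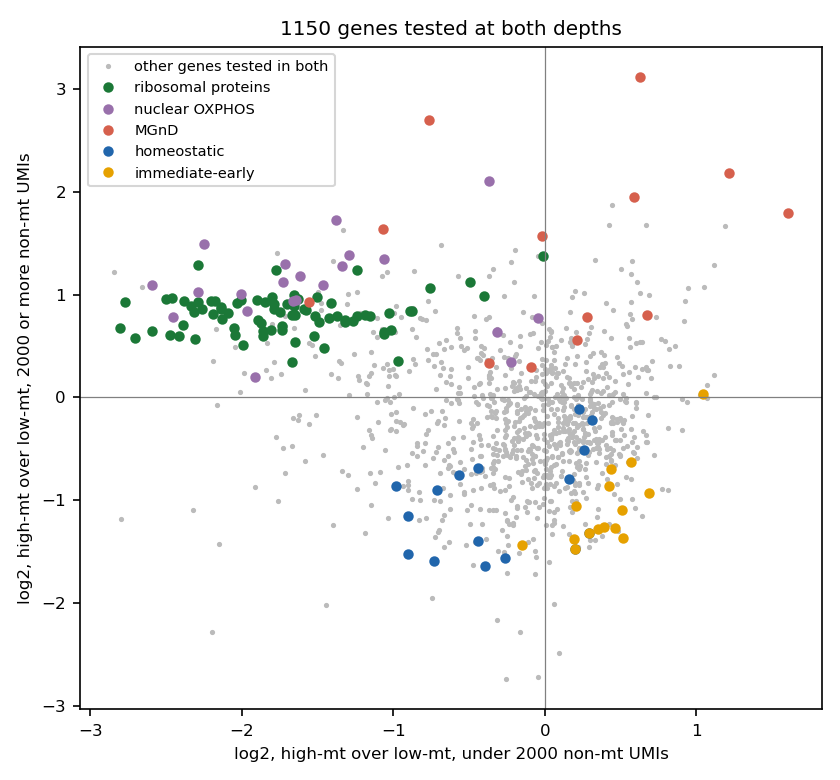
Fitted log2 change, high-mt over low-mt, of the 1150 genes tested at both depths, with barcodes under 2000 non-mitochondrial UMIs on the x axis and of 2000 or more on the y axis. Points are genes, coloured by list. Ribosomal protein and nuclear OXPHOS genes gather at the upper left, immediate-early genes at the lower right and most homeostatic genes at the lower left.

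Members with more than 20% mitochondrial UMIs held more Apoe and endolysosomal mRNA and less ribosomal protein mRNA than low-mt barcodes. They were compared with low-mt barcodes as 22, 18, 27 and 57 matched pairs, and 78 of 425 tested genes rose and 70 fell (34.8% called, 18.4% higher and 16.5% lower). Apoe (ENSMUSG00000002985, chromosome 7, 19696109 to 19699188) had 10059, 1198, 12129 and 18835 CPM in cKO replicates 1 and 2 and Control replicates 1 and 2, against 765, 321, 396 and 3199 CPM in low-mt barcodes (log2 change 3.48, SE 0.29, adjusted p = 1.05e-28). It was higher in each library, and cKO replicate 2 stood far below the others on the high-mt side. Of 23 secreted and lysosomal genes 14 rose and 1, Cst3, fell (median 0.96 against 0.09 over all tested genes). The risers included Ctsd, with 17809, 8155, 24633 and 19392 CPM against 5994, 5408, 4665 and 6048 CPM (log2 change 1.70, SE 0.23, adjusted p = 1.32e-11), Hexa, the alpha subunit of hexosaminidase (1.58), the cathepsins Ctsl (1.37), Ctsz (1.29) and Ctsb (1.21), and lysozyme Lyz2 (1.32). Of 8 tested MGnD genes 7 rose, 4 of which are in the secreted and lysosomal list as well (Apoe, Ctsd, Ctsz and Ctsb). Adamts1, a secreted metalloprotease, had 1319, 1059.7, 842 and 873 CPM against 63.8, 0, 122 and 253 CPM (log2 change 2.92, SE 0.35, adjusted p = 4.39e-14). The filter on low counts admitted Adamts1 on its high-mt levels alone, which favours a rise among genes tested at this level.

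In the same members 46 of 65 ribosomal protein genes fell and 1 rose (median -1.05). Tmsb4x had 1682, 737, 1590.2 and 1710.0 CPM against 7875, 3849.7, 5946 and 7967 CPM (log2 change -2.05, SE 0.26, adjusted p = 2.99e-12), with no overlap between the classes. Neat1 had 2671, 3041, 1154 and 1249 CPM against 574, 1054, 244 and 386 CPM (log2 change 1.99, SE 0.29, adjusted p = 1.25e-09). Of 13 transcripts with retained introns 4 rose and none fell, namely Ccnl1 (1.57), Rbm39 (0.92), Nktr (0.90) and Luc7l2 (0.81), all of which encode splicing-related proteins. Kcnq1ot1, an antisense RNA of an imprinted locus, also passed (0.76, adjusted p = 0.0373) but was higher in 2 of 4 libraries only. Malat1 did not pass, at 65596, 88325, 74928 and 75932 CPM against 59266, 102062, 86959 and 62360.4 CPM (log2 change 0.12, SE 0.16, adjusted p = 0.617). The chemokine genes Ccl3 (1.89) and Ccl4 (1.43) rose, as did the early-response gene Ier3 (3.00) and Itgb5 (1.53). P2ry12 (-1.15), Tmem119 (-1.36), Cx3cr1 (-0.87) and Fcer1g (-1.37) fell. The number that rose depended on single libraries and on the tool. DESeq2 called 27 genes higher and 59 lower in place of 78 and 70. There were 25 higher and 58 lower without cKO replicate 1, 23 and 78 without Control replicate 1, and 34 and 32 without Control replicate 2, which gave the most pairs.

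Members with more than 10 and up to 20% gave 14 genes that rose and 25 that fell of 3383 (1.15% called, 0.414% higher and 0.739% lower). Ccl6 (1.56), Cst7 (1.56), Ank (1.77) and Apoe (1.29) were among those that rose. Crybb1 (-2.24), Alox5ap (-1.69), the myeloid transcription factor Spi1 (-1.45), Tnfaip8l2 (-1.57) and P2ry12 (-1.19) were among those that fell. Of 18 MGnD genes 8 rose, and none of 80 ribosomal protein genes passed the threshold (median 0.21). Without cKO replicate 2 only 1 rise and 1 fall were called in this comparison. Whether the changes differ between the 2 ranges of mitochondrial share was not tested.

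The composition was followed along the mitochondrial share at a common depth of 950 to 2000 non-mitochondrial UMIs, as sums per library with no test. Malat1 took 7.07, 8.89, 8.29 and 7.19% of non-mitochondrial UMIs in barcodes of at most 5% mitochondrial UMIs of cKO replicates 1 and 2 and Control replicates 1 and 2. It took 13.3, 12.4, 11.7 and 13.1% in barcodes of 5 to 10%, 12.3, 12.4, 11.4 and 12.7% in those of 10 to 20% and 6.65, 8.81, 7.25 and 8.24% in those over 20%. In all 4 libraries the share was therefore higher in both middle ranges than at either end. Ribosomal protein genes took 7.63, 5.003, 6.49 and 10.4% in barcodes of at most 5%, 1.56, 2.09, 3.20 and 2.08% in those of 5 to 10%, 1.87, 1.25, 2.37 and 2.04% in those of 10 to 20% and 3.08, 1.89, 4.05 and 3.96% in those over 20%. In all 4 libraries the share at 5 to 10% lay closer to that at 10 to 20% than to that at 5% or less. The MGnD list took 2.07, 1.08, 1.64 and 1.76% in barcodes of at most 5% and 1.14, 0.592, 1.23 and 1.24% in those of 5 to 10%. It took 1.72, 0.732, 1.68 and 1.74% in barcodes of 10 to 20% and 4.90, 1.85, 6.20 and 4.89% in those over 20%. It was highest over 20% in every library, where the sums held 17, 14, 21 and 44 barcodes.

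**Figure D4:**
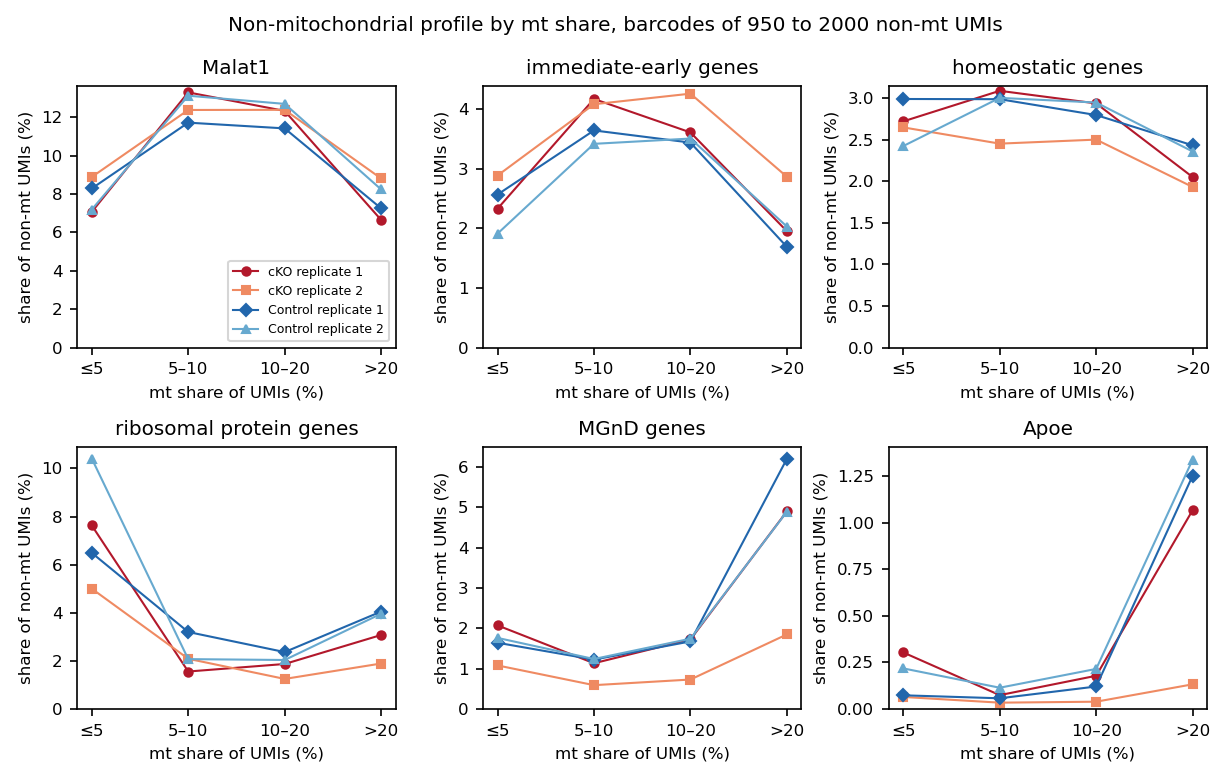
Share of non-mitochondrial UMIs taken by Malat1, Apoe and 4 gene lists in barcodes of 950 to 2000 non-mitochondrial UMIs, by mitochondrial share, with 1 line per library. Malat1 and immediate-early genes peak between 5 and 20%, ribosomal protein genes drop above 5%, and MGnD genes and Apoe are highest above 20%, where Apoe reached 1.07%, 0.133%, 1.25% and 1.34%.

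The same shares differed with depth within each class. In low-mt barcodes of 3000 or more UMIs Malat1 took 2.74, 3.19, 2.73 and 2.77% and ribosomal protein genes 10.7, 9.68, 11.3 and 11.9%. Deep members gave 3.61, 1.81, 1.19 and 2.75% for Malat1 and 15.9, 11.9, 23.7 and 16.1% for ribosomal protein genes. Members under 950 UMIs, of which 17 entered the matched comparison, gave 12.1, 11.9, 11.8 and 12.1% for Malat1 and 2.09, 1.43, 2.39 and 2.59% for ribosomal protein genes. The free RNA of barcodes with at most 100 UMIs held 1.35, 2.66, 1.68 and 1.21% Malat1 and 7.33, 4.76, 8.70 and 8.65% ribosomal protein genes, and 1.43 to 1.91% mitochondrial UMIs. Its Apoe share, 0.322, 0.133, 0.306 and 0.450%, was lowest in cKO replicate 2, as it was in that library's members. Gm42418, an rRNA-overlapping transcript, took 33.7, 32.8, 30.6 and 34.8% of free RNA and 5.56, 5.27, 6.19 and 6.89% of the members' non-mitochondrial UMIs. The part of free RNA in the members' profile was not tested further.

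Single members were not alike, and neither were matched low-mt barcodes. The median Malat1 share per member was 11.6%, 11.2%, 10.7% and 11.7% in the 4 libraries, and 126, 113, 105 and 195 members exceeded 10%. At the other end 9, 9, 30 and 9 members fell under 2%. Of matched low-mt barcodes, 42, 33, 61 and 51 exceeded 10% in Malat1, against 53, 38, 67 and 89 matched members. Under 2% were 21, 8, 27 and 33 matched low-mt barcodes, against 7, 9, 30 and 8 matched members. Apoe was undetected in 46.3%, 65.9%, 44.6% and 36.8% of members and exceeded 1% of non-mitochondrial UMIs in 21, 1, 30 and 46 of them. Of those, 3, 0, 6 and 9 also exceeded 10% in Malat1. Per barcode, 15, 1, 22 and 30 matched members exceeded 1% in Apoe, against 4, 1, 6 and 10 matched low-mt barcodes.

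Gene length went along with the change in shallow barcodes. Protein-coding genes were split into 3 parts of like size by annotated exonic length (GENCODE M21). Under 2000 UMIs, 37 of the 674 shortest rose and 250 fell, and 178 still fell when ribosomal protein genes were set aside. Of the 674 longest, 34 rose and 3 fell. In deep barcodes 132 of the 457 shortest rose and 43 fell, and 12 of the 457 longest rose and 42 fell. Of 56 tested long noncoding RNAs 9 rose and 2 fell in shallow barcodes. These are counts over genes that share barcodes, with no test of the split.

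Microglial states were counted per barcode after thinning each to 1000 non-mitochondrial UMIs, which kept 94, 66, 122 and 134 matched members and 97, 68, 129 and 137 low-mt barcodes. A barcode held a state with at least 2 of its listed genes, or 3 for the homeostatic state. MGnD was found in 27.7%, 19.7%, 36.1% and 24.6% of members, against 8.25%, 5.88%, 10.9% and 14.6% of low-mt barcodes. The mean difference was 17.1 ± 6.63 percentage points (SD, n = 4 libraries, higher in 4 of 4), with a two-sided exact sign-flip p = 0.125, the smallest the design allows, and 0.200 after adjustment over 8 states. In the same barcodes without thinning, MGnD was held by 33 of 94, 18 of 66, 56 of 122 and 46 of 134 members, against 9 of 97, 5 of 68, 20 of 129 and 28 of 137 low-mt barcodes. Draws of 1000 UMIs from free RNA alone would score as MGnD in 22.8%, 9.31%, 34.6% and 36.2%, which the low-mt barcodes lay below. The share in Control replicate 2 did not exceed the level of free RNA. The members' 95% exact binomial intervals held that level in cKO replicate 1 (18.9 to 37.8%) and Control replicate 1 (27.6 to 45.3%). Only that of cKO replicate 2 lay above it (10.9 to 31.3%). At 2000 UMIs MGnD was held by 13 of 16, 7 of 15, 30 of 33 and 19 of 23 members, against 1 of 14, 3 of 15, 5 of 33 and 7 of 23 low-mt barcodes. Free RNA alone would give 53.4%, 27.1%, 69.5% and 71.6% at 2000 UMIs, below the share in the members of all 4 libraries.

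Cycling genes marked 3.51% of members and 0.773% of low-mt barcodes on average (higher in 4 of 4, exact sign-flip p = 0.125). These were 3, 2, 5 and 5 members against 3, 0, 0 and 0 low-mt barcodes, and free RNA alone would give 0.178% to 0.492%. Cytokine genes marked 32.5% of members and 24.6% of low-mt barcodes (higher in 4 of 4, exact p = 0.125), both under the 36.6% to 41.6% that free RNA would give. MHC class II genes marked 1.87% and 0.808% (higher in 4 of 4, exact p = 0.125), which were 1 or 2 members per library. Heat-shock genes marked 11.5% of members and 17.0% of low-mt barcodes (lower in 4 of 4, exact p = 0.125). The interferon (6.83% and 4.997%), immediate-early (87.4% and 91.3%) and homeostatic (83.4% and 91.8%) states were each higher in 2 of 4 libraries (exact p = 0.500 for each). The homeostatic share was lower in members of both cKO libraries, at 81.9% and 68.2% against 94.8% and 94.1%, and higher in both Control libraries, at 91.8% and 91.8% against 89.9% and 88.3%. This split did not hold when barcodes were thinned to 500 or 2000 UMIs. Free RNA alone would score 98.7% to 99.4% in the homeostatic state and 96.5% or more in the immediate-early state, so none of these shares exceeded that level. For interferon genes it would score 3.66%, 4.28%, 2.87% and 3.50%, below the members (4.26%, 6.06%, 6.56% and 10.4%) and the low-mt barcodes (5.15%, 7.35%, 3.101% and 4.38%) of each library. For MHC class II it would score 0.884%, 0.748%, 0.569% and 1.64%, above the members in Control replicate 2 alone. For heat-shock genes it would score 7.36%, 28.1%, 5.62% and 2.13%, above the members in cKO replicate 2 and Control replicate 1. These orders compare point values. For interferon genes the 95% exact binomial intervals of both cKO libraries held the free RNA level in both classes.

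**Figure D5:**
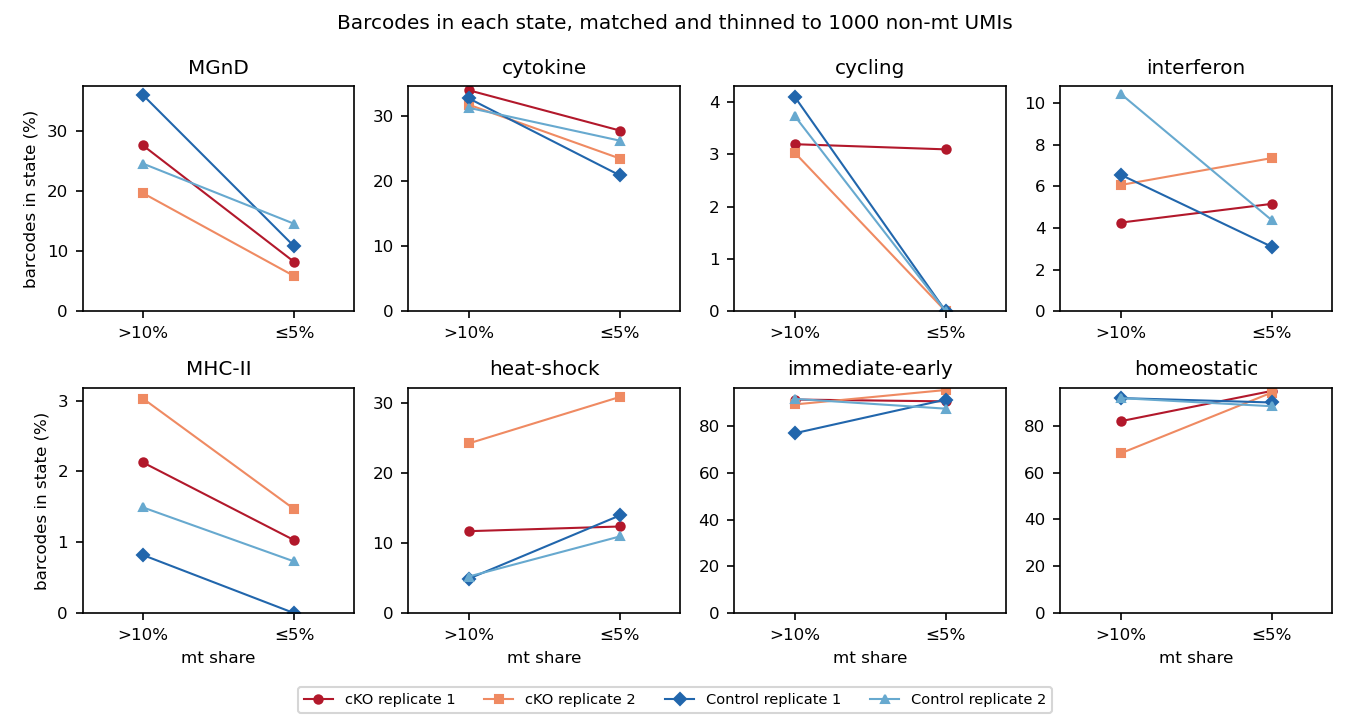
Share of barcodes in each of 8 microglial states after thinning to 1000 non-mitochondrial UMIs, in matched high-mt (over 10%) and low-mt (at most 5%) barcodes, with 1 line per library. MGnD, cytokine, cycling and MHC-II shares are higher and heat-shock shares lower in high-mt barcodes of all 4 libraries, and the remaining states are split 2 against 2.

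The mitochondrial transcripts themselves kept nearly the same proportions. As a share of mitochondrial UMIs, which the rule did not use, mt-Atp6 took 17.8% ± 0.709 in matched members and 16.8% ± 0.918 in low-mt barcodes (SD, n = 4), higher in 4 of 4 libraries. The cytochrome b gene mt-Cytb took 11.4% ± 0.456 and 10.4% ± 0.401, also higher in 4 of 4. Lower in all 4 were mt-Nd4 (6.23% ± 0.252 and 6.88% ± 0.299), mt-Nd2 (8.76% ± 0.528 and 9.15% ± 0.249) and mt-Nd3 (2.05% ± 0.360 and 2.49% ± 0.756). Each of these 5 had a two-sided exact sign-flip p = 0.125, the smallest possible, and 0.325 after adjustment over 13 transcripts. The marker mt-Co1 took 10.8% ± 0.905 and 11.8% ± 0.764 and was higher in 1 of 4 libraries (exact p = 0.250), and mt-Co2 took 13.98% ± 0.0645 and 13.96% ± 0.153.

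Within the members, cKO and Control were compared over all 836 barcodes as 1 sum per library. Of 4749 tested genes, edgeR's test called none at an adjusted threshold of 0.05 (0% called), with 260 at an unadjusted p under 0.05, and DESeq2 also called none, with 107. The gene with the smallest p, the heat-shock gene Hspa1a, had a log2 difference of 2.01 (SE 0.33, adjusted p = 0.644). Its levels were 541 and 332 CPM in cKO, against 91.1 and 113 CPM in Control. Leaving out single libraries gave 44 genes without cKO replicate 1, 8 without cKO replicate 2, none without Control replicate 1 and 70 without Control replicate 2. A pairing by replicate number, as an alternative, gave none. The interaction of genotype and mitochondrial class passed for 1 of 4496 genes (0.0222% called), the choroid plexus transcript Ttr. Its 11802 UMIs in matched members of cKO replicate 2 are described above. No gene was called in the interaction without that library or without barcodes that carry other types' markers.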

How the data were processed

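Gene by barcode UMI counts of 4 droplet libraries, unfiltered, were deposited by the authors. Per the submitters' processing notes they were made with Cell Ranger 4.0.0, and per the labels with 10x Genomics 3′ v3.1 chemistry on the mm10 build. Counts are whole and not normalized. Barcodes with at least 1000 UMIs and 500 genes were kept, the 13 mitochondrial genes were removed, and high-mt barcodes (over 10%) were paired 1 to 1 with low-mt barcodes (at most 5%) of the same library on non-mitochondrial UMIs, in bins of 0.25 log2 unit, by a seeded draw.

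UMIs were summed per library and class and tested with edgeR 4.0.16 (R 4.3.3; quasi-likelihood, TMM scaling, filterByExpr, library as a block, Benjamini-Hochberg 0.05). DESeq2 1.42.0 was an alternative. A gene could pass filterByExpr on a single class, as Top2a (all depths) and Adamts1 (over 20%) did on high-mt sums. Printed CPM are unscaled. Log2 changes use TMM, and plain scaling shifts them by -0.06 (all depths), -0.12 (over 20%), -0.09 (10 to 20%), 0.10 (under 2000 UMIs) and -0.17 (2000 or more). On simulated data with the samples' own means, 86% of 2-fold and 100% of 4-fold changes were recovered between the classes over 3493 genes, 60% and 100% between genotypes over 4814 genes, and 8% and 75% for the genotype interaction over 4421 genes. The simulation gave every gene the same dispersion, held no differences between libraries and changed only genes above a minimum count. These rates therefore need not hold for the real data, where the spread between libraries was not set by the simulation. The gene tests estimate dispersion with information shared across genes. Their small p-values therefore do not rest on the spread of 4 libraries alone. Between the classes they rest on differences within the 4 libraries, labelled biological replicates, with 3 residual degrees of freedom. Between genotypes they rest on the spread between libraries, with 2. Library totals were 33130800 to 47574406 UMIs. Intervals are exact binomial at 95%.

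Named genes passed the threshold, moved the same way in all 4 libraries, had an average of at least 5 log2 CPM and were not predicted, ribosomal or mitochondrial genes, the 10 largest changes per direction in the main comparison and the 5 smallest p per direction in the others, with up to 3 per list and fixed checks. Some genes that this rule names are not reported here. Further genes named were chosen after their values were seen. The members and gene lists were chosen with earlier results of these data known, and list members shared by lists count in both. Of 32372 features, 51 had no match in the GENCODE M21 annotation used for gene positions and lengths. Doublets were scored with scanpy 1.11.5, whose own threshold marked 1 barcode in all, so removal used a fixed rate of 0.8% per 1000 barcodes and marked 2 members. Same-numbered cKO and Control libraries had a deviation correlation of -0.22 over 4749 genes, and the number was not used as a pairing. With 2 libraries per group this value cannot settle whether the number marks one.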

Additional observations from a re-analysis of the deposited data

Results flagged for a closer look

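The homeostatic share of barcodes, high-mt minus low-mt, was -12.9 and -25.9 percentage points in cKO replicates 1 and 2, against 1.88 and 3.47 points in Control replicates 1 and 2. Both cKO libraries moved one way and both Control libraries the other, and the difference between the genotypes was not tested. The split depended on the setting. Thinned to 500 UMIs, the homeostatic share was higher in members of 0 of 4 libraries (mean difference -16.9 points). It was higher in 1 of 4 at 2000 UMIs, with 1 more gene required, or without barcodes carrying other types' markers. The interferon share moved by -0.899 and -1.29 points in the cKO libraries, against 3.46 and 6.07 points in the Control libraries, which was not tested either. In each cKO library this was 4 members against 5 low-mt barcodes. This split depended on the setting as well. The interferon share was higher in members of 0 of 4 libraries at 2000 UMIs, and of 3 of 4 without barcodes carrying other types' markers.

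The choroid plexus transcript Ttr had a genotype by mitochondrial class interaction of 14.0 on the log2 scale by edgeR (adjusted p = 3.24e-06). Ttr took 11802 UMIs in matched high-mt barcodes of cKO replicate 2, where 5 barcodes carried at least 2 choroid plexus markers. No gene was called without that library or without barcodes carrying other types' markers.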

How the results depend on the processing

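The main comparison called 72 genes. It called 41 with DESeq2, 212 with no filter on low counts, 329 with a threshold of 8% mitochondrial UMIs, 184 when matched on total UMIs, 117 from 2000 UMIs and 16 against barcodes of 5 to 10%, and 22 to 70 when single libraries were left out. Without matching it called 3601, and 3139 with all barcodes thinned to 1000 UMIs without matching. The classes differ in depth before thinning in both. Capg (-0.084 and -0.089), Ccl6 (-0.33 and -0.67), Clec7a (-0.22 and -0.0014) and Cst7 (-0.30 and -0.34) then changed sign without matching and when thinned, as did Cox6c when thinned (-0.065). Tnfaip8l2 did so against barcodes of 5 to 10% (0.043). Of 531 values of the 33 called named genes under the alternatives, these among them, 405 kept their direction and side of the threshold and 116 their direction only.

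Over 20%, 148 genes were called, with DESeq2 86, matched on total UMIs 315, and 66 to 167 with single libraries left out. From 10 to 20%, 39 were called, with DESeq2 23, with no filter 106, and 2 to 60 with libraries left out. The depth strata, their interaction and the restriction to microglial barcodes within them were chosen after seeing the data. Under 2000 UMIs 402 genes were called, with DESeq2 179 and 258 to 411 with libraries left out. From 2000 UMIs 337 were called, with DESeq2 206, in microglial barcodes 159 and 75 to 376 with libraries left out. The depth interaction called 461, and 305 to 442 under its 6 alternatives.

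Of 21 list medians 14 were above 0, and 5 were without matching. The nuclear long noncoding median of 0.45 was 0.99 without matching. The ribosomal median of 0.08 was -0.66 over 15%, -0.93 without matching and -0.56 when matched barcodes were thinned. The MGnD median of 1.52 was 0.90 over 15%, -0.015 without matching and 0.90 when matched barcodes were thinned. The immediate-early share difference was 1.10 points at 500 UMIs, and the interferon difference -8.11 at 2000 UMIs and -0.350 when 1 more gene was required. The causes were not tested.

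Between genotypes, 0 genes were called within high-mt barcodes, 48 with no filter, 3 over 8%, and 0 to 70 with libraries left out. With a replicate block 0 were called (161 at an unadjusted p under 0.05), and a crossed block, added after the negative pair correlation was seen, gave 13. The genotype interaction called 1 gene, 4 with no filter, 0 with DESeq2, over 8%, over 15%, under 2000 UMIs or in microglial barcodes, and 0 to 28 with libraries left out. The genotype difference in the share of members ranged from -3.77 to 0.906 points around -1.43 with libraries left out. Depth limits the deep comparison to 16, 15, 33 and 23 matched members of cKO replicates 1 and 2 and Control replicates 1 and 2.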
